A study of Mus musculus with 16 samples.

Results

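Pericyte-like mural cells were examined in single-cell transcriptomes of mammary tumors from 2 mouse strains that model triple-negative breast cancer. The members were chosen by their own UMIs (unique molecular identifiers, 1 per captured transcript): a sum of at least 2 over Rgs5, Notch3, Abcc9, Kcnj8 and Cspg4 with at least 1 of Rgs5, at least 3 of Col1a2 and Col3a1, under 2 of the endothelial genes Cdh5, Emcn and Pecam1, and under 3 of the myeloid genes Tyrobp, Fcer1g and Ctss. This rule selected 52 of 4798 filtered cells, 19 of 1307 in WB1P and 33 of 3491 in WB1P-Myc. The comparison fibroblasts, with at least 10 UMIs of both collagens and no Rgs5, numbered 473.

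WB1P tumors arose in untreated WapCre;Brca1F/F;Trp53F/F mice, where the Wap promoter directs Cre to mammary epithelium and floxed Brca1 and Trp53 are lost there. WB1P-Myc tumors shared these alleles and also carried the Col1a1invCAG-Myc-IRES-Luc construct, which Cre switches on to express Myc and luciferase. Live singlets, gated as DAPI-negative, were sorted from mammary tumors into 1 suspension per model and run by Drop-seq, in which barcoded beads capture transcript 3′ ends in droplets. Each suspension gave 4 droplet fractions, which are technical. The study names 2 mice per model, but no fraction was assigned to a mouse and no ages were given, so each model counts as 1 sample, no test between models was possible, and model and droplet session cannot be told apart. All intervals are exact 95% intervals that cover counting error only.

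Pericytes are mural cells embedded in the basement membrane of capillaries and small venules, where they touch the endothelium and help to control vessel stability and tone. They are recruited by endothelial PDGF-B acting on the receptor encoded by Pdgfrb, and Notch3 signaling maintains mural identity. Vascular smooth muscle cells of larger vessels carry more of the contractile apparatus, such as smooth muscle myosin. In mammary tumors both cell types lie beside cancer-associated fibroblasts (CAFs), which share collagen and smooth muscle actin expression with them.

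The HiSeq fractions held between 256985 and 4960334 UMIs and 65 to 950 filtered cells, and WB1P fraction 1 was the smallest in both. Members were shallow, with a median of 1747 UMIs and 966.5 genes against 2941 UMIs in fibroblasts. Together they held 126578 UMIs (39192 in WB1P, 87386 in WB1P-Myc), so that 1 UMI was worth 25.5 CPM (counts per 1000000 UMIs of the class) in WB1P and 11.4 CPM in WB1P-Myc. The 2 deepest members, both of WB1P-Myc with 12986 and 11036 UMIs, stood above the next deepest, at 4263, and held 19.0% of the members' UMIs. Myc itself had 4 UMIs in WB1P and 7 in WB1P-Myc members, or 102 and 80.1 CPM, and it was at 119 and 116 CPM in fibroblasts. In the remaining filtered cells it stood at 59.4 CPM in WB1P and 143 CPM in WB1P-Myc. These counts do not tell transcripts of the construct from those of the endogenous gene. How much of the construct they capture was not tested.

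In WB1P, 1.45% of cells were pericyte-like (95% interval 0.877 to 2.26), against 0.945% (0.652 to 1.33) in WB1P-Myc. The WB1P fractions held 0 of 65, 6 of 426, 9 of 394 and 4 of 422 cells, and the count of 0 allows a share of up to 4.62% at a floor of 3 counts, or 5.52% by the exact interval. The WB1P-Myc fractions held 8 of 950, 10 of 889, 7 of 756 and 8 of 896. The mean over fractions was 1.16% ± 0.952 (SD, n = 4 technical fractions) in WB1P and 0.946% ± 0.124 (SD, n = 4) in WB1P-Myc, so the models differed by less than the spread of the WB1P fractions. Taking pericyte-like cells and fibroblasts alone, members formed 9.31% of the WB1P cells (5.70 to 14.2) against 10.3% for WB1P-Myc (7.18 to 14.1), and these intervals overlapped. Depth and sorting can set such shares, and their part was not tested.

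**Figure D1:**
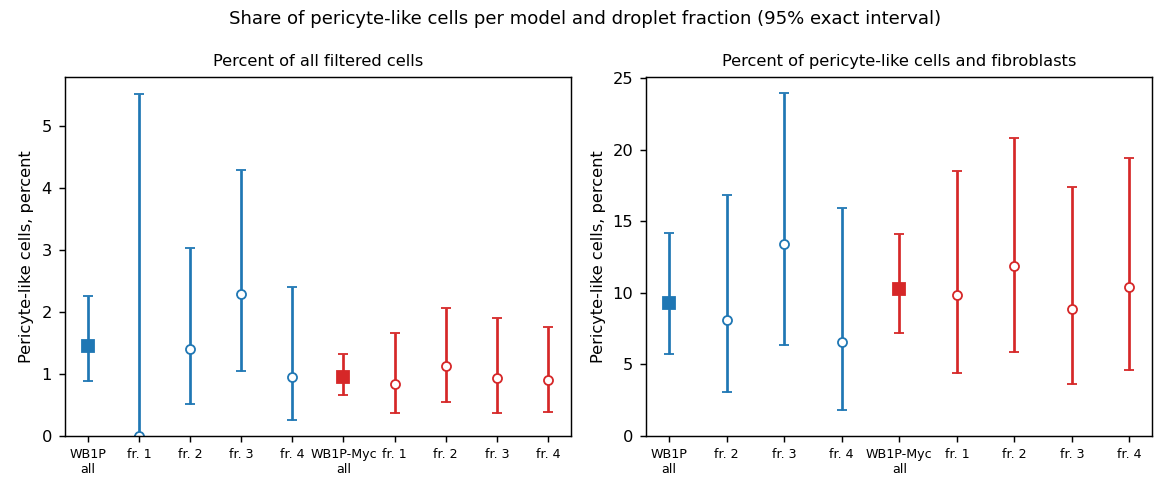
Percent of pericyte-like cells (y axis) among all filtered cells (left) and among pericyte-like cells and fibroblasts (right), for each model (squares) and droplet fraction (open circles, "fr."), with exact 95% intervals. Shares were 1.45% and 0.945% on the left and 9.31% and 10.3% on the right for WB1P and WB1P-Myc. The WB1P fraction with 2 fibroblasts and no member is not drawn on the right.

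The gate genes chose the cells, and their values describe the choice. Rgs5, a regulator of G-protein signaling and the most abundant of the 5 pericyte genes, had a median of 9.5 UMIs per member (range 1 to 56) and 4859 CPM over the members. It stood at 3315, 6326 and 5081 CPM in WB1P fractions 2, 3 and 4, and at 7901, 4239, 4309 and 3703 CPM in the 4 WB1P-Myc fractions, so the models overlapped. Of all Rgs5 UMIs in filtered cells, 63.0% fell in members, and 0.793% of myeloid cells, which should lack the gene, had a UMI of it at a median of 1539 UMIs per cell.

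Abcc9 and Kcnj8 encode the regulatory and pore subunits of the vascular ATP-sensitive potassium channel. Abcc9 was at 300.2 CPM in members, 10.1 in fibroblasts and 71.0 in endothelial cells, and Kcnj8 at 174 CPM against 7.84 in fibroblasts. Notch3, the mural Notch receptor, was at 111 CPM against 7.28, and Cspg4, the NG2 proteoglycan of pericytes, at 316 CPM against 72.2. The share of each gene's UMIs that fell in members was 37.3% for Abcc9, 39.3% for Kcnj8 and 20% for Notch3, but 8.05% for Cspg4, which other filtered cells also carried. Kcnj8 stood at 332 CPM in WB1P and 103 in WB1P-Myc (22 UMIs in all), whereas Cspg4 stood at 153 and 389 CPM. Of the collagens of the gate, Col1a2 was at 4491 CPM in WB1P and 9464 CPM in WB1P-Myc members on 176 and 827 UMIs (log2 ratio 1.08, 0.84 to 1.32), with 2890, 5808 and 4084 CPM in WB1P fractions 2 to 4 and 21197, 9137, 8685 and 3066 CPM in the WB1P-Myc fractions, which overlapped. Col3a1 was at 3138 and 3101 CPM.

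At the edges of the rule, 1 member had a pericyte sum of exactly 2, 2 had a single Rgs5 UMI and 6 had exactly 3 collagen UMIs. Of 114 Rgs5-positive filtered cells, 62 lay outside the rule, and 15 of them missed it only through the collagen minimum, with 0 to 2 collagen UMIs and a median of 7 Rgs5 UMIs. A further 4 missed it only through endothelial UMIs, and no cell only through myeloid UMIs. Among the members 50 had no endothelial and 48 no myeloid UMI of the gate. Doublets were limited only by the maximum of 4000 genes and by these conditions, 3 members had 2 or more epithelial UMIs and 3 had 2 or more Schwann UMIs, and no member's barcode was among the 3 found in more than 1 fraction. Beyond the gate, 12 further endothelial markers summed to 751 CPM in members and 144 in fibroblasts, and 11 myeloid markers to 126 and 199 CPM. Epithelial markers had 22 UMIs in members (174 against 236 CPM in fibroblasts). Schwann and neural crest markers had 24 UMIs (190 against 172 CPM). T and NK markers had no UMI in members, but stood at only 26.3 CPM in fibroblasts.

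The label was checked on genes that the rule did not use. Each member's 20 nearest neighbors among all filtered cells, in a space of 30 principal components of 2000 variable genes without the gate genes, were on average 63.0% other members, although members were 1.08% of cells. Fibroblasts gave 10.7% of the neighbors, endothelial cells 3.65%, other cells 22.7% and myeloid cells none. At least 10 of the 20 neighbors were members for 43 of the 52 cells, while 4 members had more than 10 fibroblast neighbors, 3 had more than 10 endothelial ones (11, 11 and 16) and 4 had no member neighbor. The models differed here: all 19 WB1P members had at least 11 member neighbors, and the 9 cells with fewer than 10 were all of WB1P-Myc, including those among fibroblasts or endothelial cells. Fibroblasts in turn had 85.5% fibroblasts and 1.07% members as neighbors. Of the 15 cells left out only for want of collagen, 7 had at least 10 member neighbors. The members thus lay mostly together, and the collagen minimum left some of their nearest cells outside.

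Most pericyte markers outside the gate were higher in members than in fibroblasts. Counts were summed per class and model, and a gene was called when it was at least 2-fold higher or lower in both models with at least 50 UMIs in all. Of 5188 genes compared, 163 were higher in pericyte-like cells (3.14%) and 233 lower (4.49%), and the median log2 ratio over all genes was −0.03. The rule is one of size alone: 75 of the higher and 128 of the lower genes also had an interval that left out equal levels in each model, and among the genes named below Mcam, Pde3a, Pgf, Nid2, Mef2a, Mef2c and Icam1 did not. This split of 41.2% higher depended on the scaling: it was 11.8% with TMM factors (62 higher, 464 lower, median −0.45) and 19.3% with median-ratio factors (83 higher, 347 lower, median −0.26). It also depended on the comparison class, since against 609 fibroblasts with at least 3 collagen UMIs, no UMI of the 5 pericyte genes and the members' own limits on endothelial and myeloid UMIs, 222 genes were higher and 180 lower, at a median of −0.11. Of 114 named genes 61 then moved beyond their counting interval, 55 of them upward, and 14 crossed 0. Of the 9 pericyte markers compared, 6 were higher and none lower, with a median log2 ratio of 1.80, against 3.14% of all genes compared, and 4 were higher under either other scaling.

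Higd1b, a gene of the hypoxia-inducible domain family and a known pericyte marker, had the highest ratio of all genes compared. Its level in members was 600.4 CPM (473 to 752), and fibroblasts held 1 UMI of it, for a log2 ratio of 10.07 (7.54 to 15.39). It was detected at 935, 633 and 598 CPM in WB1P fractions 2, 3 and 4, and at 642, 314, 606 and 757 CPM in the WB1P-Myc fractions. All 7 fractions with members thus held it, and members carried 73.8% of its UMIs. Higd1b was seen in 61.5% of members, 0.211% of fibroblasts and 0.0991% of myeloid cells, and with every cell thinned to 600 UMIs in 32.7% of members and no fibroblast.

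Pdgfrb, the receptor through which pericytes are recruited, was at 340 CPM in members and 104 in fibroblasts (log2 ratio 1.71, 1.20 to 2.20). Rgs4, a relative of Rgs5, was at 371 against 29.1 CPM (3.67), and Ndufa4l2, a hypoxia-inducible mitochondrial gene, at 158 against 18.5 CPM (3.10). Mcam (CD146) had a ratio of 1.80 but was higher still in endothelial cells, at 326 CPM against 158 in members. S1pr3, a sphingosine 1-phosphate receptor, reached 1.59. The transcription factor Ebf1 did not separate the classes (0.24, −0.23 to 0.68). Steap4 went the other way, with no UMI in members and 76 in fibroblasts (a log2 ratio of −0.84 or below at a floor of 3 counts), and Anpep, with too few UMIs to be compared, had 1 against 32 (−1.18, −6.53 to 1.40). Gucy1a3, a subunit of the nitric oxide receptor guanylate cyclase, stood at 190 against 6.16 CPM and Des, the muscle intermediate filament desmin, at 103 against 6.16 CPM, but both had too few UMIs to be called.

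**Figure D2:**
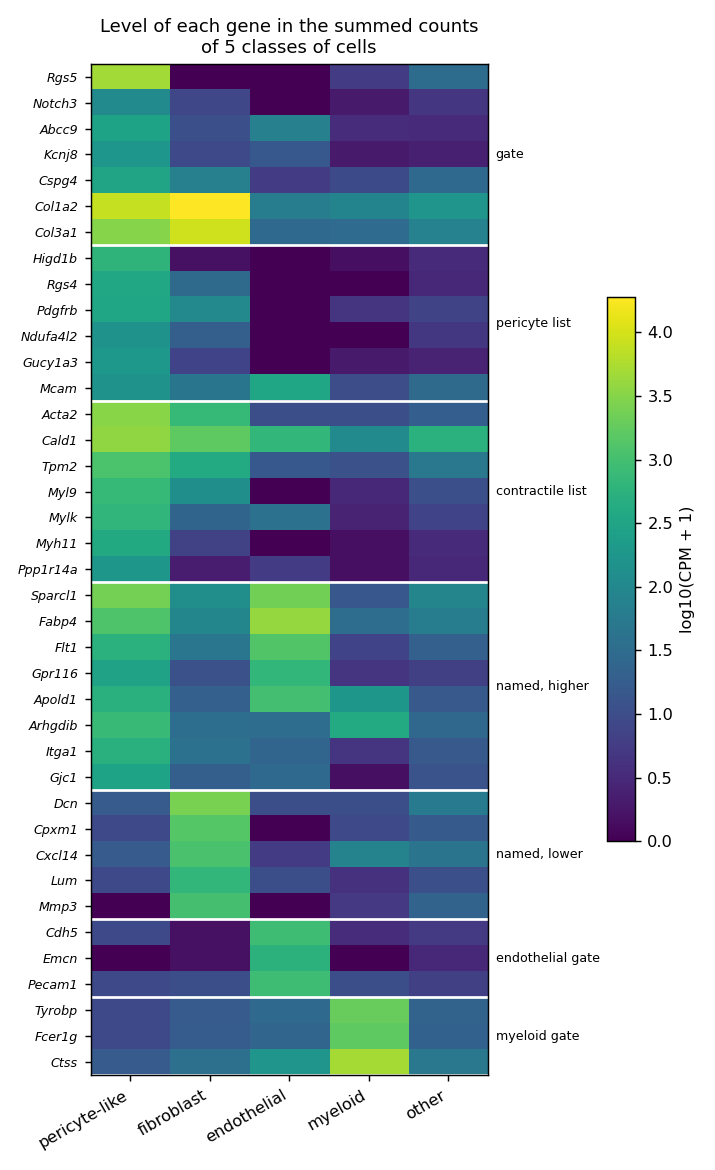
Level of each gene (rows) in the summed counts of pericyte-like cells, fibroblasts, endothelial cells, myeloid cells and all other filtered cells (columns), as log10(CPM + 1). Rgs5 (4859 CPM) and Higd1b (600.4 CPM) stand out in the first column, Sparcl1, Fabp4, Flt1, Gpr116 and Apold1 are shared with endothelial cells, and Dcn is at 15.8 CPM in members and 2614 in fibroblasts.

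Contractile genes were the most abundant group that was higher in the members, at 16717 CPM in sum against 6358 in fibroblasts. Of 14 compared, 8 were higher (background 3.14%) and none lower, with a median log2 ratio of 1.38 (5 higher under either other scaling). Acta2, which encodes smooth muscle α-actin, was at 3279 CPM against 728 (2.17, 2.01 to 2.33), with 2890, 2818 and 5579 CPM in WB1P fractions 2 to 4 and 4882, 3265, 2895 and 2110 CPM in the WB1P-Myc fractions. The actin-binding regulator Cald1 was at 3721 CPM against 1611 (1.21), and the thin-filament protein Tpm2 at 1177 against 403 (1.55). Myl9, the regulatory myosin light chain, was at 735 CPM against 134 (2.46), and its kinase Mylk at 656 against 23.0 (4.84, 4.28 to 5.41).

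The smooth muscle myosin heavy chain Myh11 showed the second highest ratio of all genes compared, with 395 CPM in members and 5.60 in fibroblasts (6.14, 5.14 to 7.29). It ranged from 85.0 to 498 CPM over the WB1P fractions and from 199 to 771 CPM over those of WB1P-Myc. Smooth muscle γ-actin Actg2 was at 371 against 67.8 CPM (2.45) and Csrp1 at 158 against 43.7 CPM (1.86). The thin-filament nucleator Lmod1 stood at 221 against 5.60 CPM and the myosin phosphatase inhibitor Ppp1r14a at 182 CPM on 2 fibroblast UMIs, both with under 50 UMIs in all. In contrast Tagln (SM22α), which fibroblasts also expressed, was at 916 against 545 CPM (0.75), and Myl6 and Tpm1 had ratios of 0.76 and 1.03 that did not pass the 2-fold rule in both models. Flna, Csrp2 and Smtn had intervals that included equal levels.

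The promoters of a pair of contractile and a pair of gate genes are printed to show what stands before these starts. Each is 300 bases of RefSeq sequence (GRCm38.p6), 250 before and 50 after the start, on the gene's strand, with capitals marking a CArG box at most 1 base off. The CArG box is the site of serum response factor, which drives smooth muscle genes. Acta2 lies at chr19:34255324-34255623 (minus strand), Myl9 at chr2:156775214-156775513 (plus), Kcnj8 at chr6:142571565-142571864 (minus) and Rgs5 at chr1:169655251-169655550 (plus).
Acta2: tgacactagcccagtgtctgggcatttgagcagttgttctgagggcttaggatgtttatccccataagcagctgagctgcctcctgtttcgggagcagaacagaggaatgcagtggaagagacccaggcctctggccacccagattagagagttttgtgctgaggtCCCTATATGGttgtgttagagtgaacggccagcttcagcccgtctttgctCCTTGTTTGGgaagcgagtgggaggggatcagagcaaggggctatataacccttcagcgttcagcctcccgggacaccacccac
Myl9: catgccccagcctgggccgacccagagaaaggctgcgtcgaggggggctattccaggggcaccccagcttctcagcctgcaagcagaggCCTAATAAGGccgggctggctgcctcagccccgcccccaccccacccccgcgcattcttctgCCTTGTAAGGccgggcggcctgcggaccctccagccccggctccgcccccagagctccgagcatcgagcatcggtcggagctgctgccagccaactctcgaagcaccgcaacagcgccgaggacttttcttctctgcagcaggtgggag
Kcnj8: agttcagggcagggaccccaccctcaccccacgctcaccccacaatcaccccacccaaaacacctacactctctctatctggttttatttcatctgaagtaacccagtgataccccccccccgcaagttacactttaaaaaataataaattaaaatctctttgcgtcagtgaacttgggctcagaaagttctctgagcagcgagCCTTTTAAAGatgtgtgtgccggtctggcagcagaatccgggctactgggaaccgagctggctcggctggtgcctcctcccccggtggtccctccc
Rgs5: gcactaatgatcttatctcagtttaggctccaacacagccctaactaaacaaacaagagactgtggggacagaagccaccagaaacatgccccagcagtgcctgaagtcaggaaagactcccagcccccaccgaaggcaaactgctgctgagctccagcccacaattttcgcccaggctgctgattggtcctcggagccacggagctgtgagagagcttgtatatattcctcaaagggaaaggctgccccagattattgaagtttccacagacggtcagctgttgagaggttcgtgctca
Acta2 held such boxes starting 84 and 34 bases before the start, and TGGGAA, the core letters bound by the Notch effector RBPJ, 27 bases before it and overlapping the nearer box. Myl9 held a box with every base matching 161 bases before the start, and another 1 base off at 99. Kcnj8 held a box 1 base off 46 bases before the start and TGGGAA at the start itself, and Rgs5 held neither set of letters. Searched on both strands, a box at most 1 base off occurred in 7 of 20 promoters of contractile genes (35%), in 4 of 23 promoters of pericyte genes (17.4%) and in 21.1% of all 32851 promoters. TGGGAA occurred in 30%, 39.1% and 25.6%. Of the listed genes 17 of 21 and 18 of 28 matched the table, and these matches are descriptions only.

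**Figure D3:**
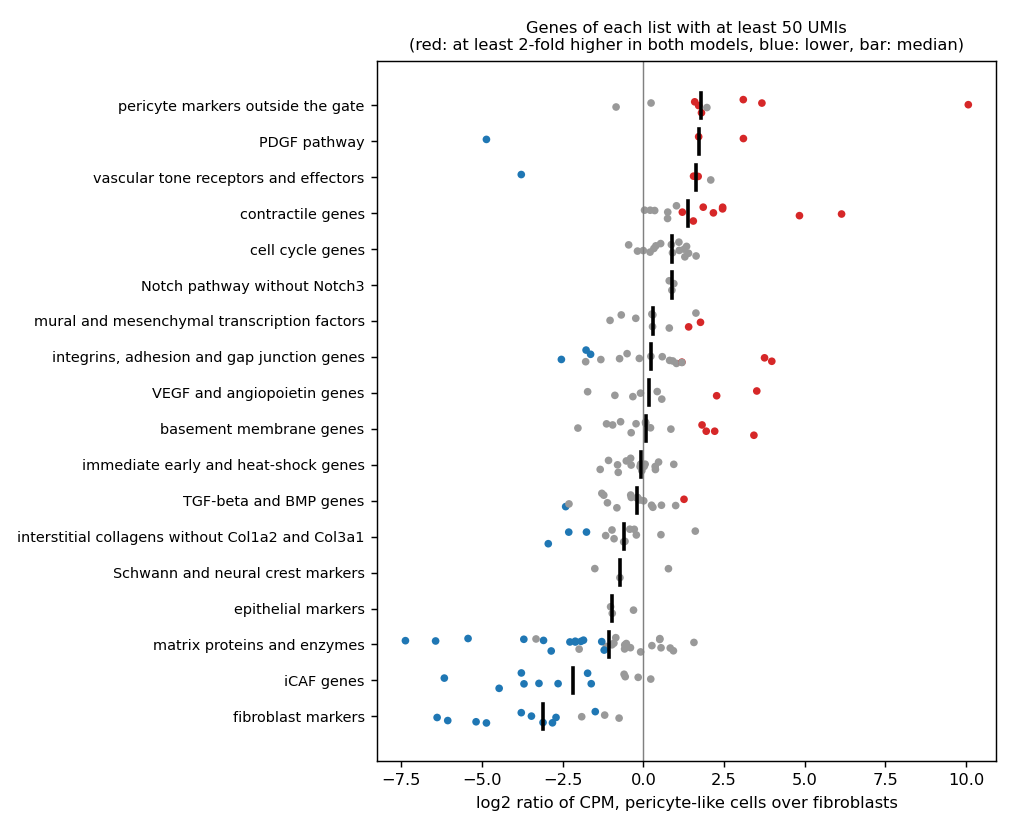
Log2 ratio of CPM in pericyte-like cells over fibroblasts (x axis) for the genes of each list (rows) with at least 50 UMIs, where red marks genes at least 2-fold higher in both models, blue those lower, grey the rest and the bar the median. A gene without UMIs in members is drawn at its bound of 3 counts. Pericyte markers (median 1.80) and contractile genes (1.38) lie to the right, iCAF genes (−2.18) and fibroblast markers (−3.11) to the left.

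Genes of the signaling pathways that link mural cells to endothelium were measured with fewer UMIs. In the PDGF pathway Pdgfa, a ligand, was at 379 CPM against 44.2 (3.10) and Pdgfrb was higher as above, for 2 of 3 genes higher against 3.14% of all genes, whereas Pdgfra, the receptor of fibroblasts, had 1 UMI in members and 410 in fibroblasts (−4.86). Under either other scaling only 1 of the 3 was higher, since Pdgfrb, at 1.11 in WB1P, then fell below 2-fold there. Of the Notch pathway beyond Notch3, 3 genes were compared and none was called: the target Hes1 (514 against 278 CPM, 0.88), the ligand Jag1 (0.94) and the effector Rbpj (0.80). Heyl and Nrarp, Notch targets with 11 and 10 UMIs, stood at 86.9 against 14.6 and 79.0 against 1.68 CPM, below the UMI minimum. Of 8 VEGF and angiopoietin genes, the ligand Pgf (103 against 21.3 CPM, 2.27) and its receptor Flt1 (537 against 47.0 CPM, 3.51) were higher (background 3.14%), and without the deepest member 1 of 7 was. The list median of 0.17 turned negative under TMM (−0.26) and median-ratio scaling (−0.06). Nrp1, a coreceptor, did not separate the classes (0.43, −0.08 to 0.90), and the ligand Vegfa had 7 UMIs in members (−0.88, −2.22 to 0.19).

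Of 4 genes of vascular tone compared, the endothelin receptor Ednra (182 against 56.0 CPM, 1.70) and the phosphodiesterase Pde3a (1.56) were higher, and Rgs2, with 1 UMI in members, was lower (−3.78). Over all genes 3.14% were higher and 4.49% lower. Neither Ednra nor Pde3a passed the rule under the other scalings. Of 18 TGF-β and BMP genes, the BMP target Id3 was higher (1.26) and the receptor Tgfbr2 lower (−2.41), against 3.14% and 4.49% of all genes, while under either other scaling none was higher and 4 were lower, so that the call of Id3 depended on the scaling. Of 10 mural and mesenchymal transcription factors, Mef2c (1.77) and Mef2a (1.40), which cooperate with serum response factor in muscle, were higher (background 3.14%). This count was 1 higher and 1 lower under TMM and 1 higher and none lower under median-ratio factors. The list medians were −0.19 for the TGF-β and BMP genes and 0.29 for the transcription factors.

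Among adhesion genes 3 of 17 were higher and 3 lower (background 3.14% and 4.49%), and under either other scaling 2 were higher and 4 lower. The collagen-binding integrin Itga1 was at 521 CPM against 38.6 (3.75, 3.25 to 4.26), its partner Itgb1 at 2109 against 922 CPM (1.19), and the gap junction gene Gjc1 (connexin 45) at 300.2 against 19.0 CPM (3.98). Gja1, the connexin 43 gene, was lower (−2.54), as were the mesenchymal cadherin Cdh11 (−1.63) and Icam1 (−1.77). The connexin genes Gjc1 and Gja1 thus differed in opposite directions between the classes.

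A group of the genes with the highest ratios over fibroblasts was shared with endothelial cells. Sparcl1, a matricellular protein of vessels, was at 2417 CPM in members, 128 in fibroblasts (4.24) and 2295 in endothelial cells, with WB1P fractions at 3825, 3335 and 2491 CPM and WB1P-Myc fractions at 2120, 1225, 3636 and 2070. The fatty acid carrier Fabp4 was at 1232 CPM in members, 90.7 in fibroblasts and 3969 in endothelial cells. The adhesion receptor Gpr116 (292 CPM), the immediate early vascular gene Apold1 (521 CPM) and Flt1 were each higher in endothelial cells, at 672, 984 and 1277 CPM. Cdh5 and Pecam1 had 1 UMI each in members and Emcn none. The 12 further endothelial markers, Flt1 included, summed to 751 CPM in members, 144 in fibroblasts and 5654 in endothelial cells. Of these sums Flt1 alone gave 537, 47.0 and 1277 CPM. Arhgdib was at 798 CPM against 33.6 (4.57) and at 414 CPM in myeloid cells, where the myeloid marker list summed to 22881 CPM against 126 in members. The part of free RNA in these levels was not tested. Bcr (3.66) and Sept4 (3.60), outside any list, were also among the 15 genes named for the highest ratios.

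The fibroblasts had to hold 10 collagen UMIs and the members only 3, so a lower collagen level in members is partly set by the rules. Of 14 basement membrane genes 4 were higher and none lower (background 3.14%), against 3 higher and 2 lower under TMM and 4 higher and 1 lower under median-ratio factors: Col4a1 (2212 against 573 CPM, 1.95), Col4a2 (1138 against 246 CPM, 2.21), Col18a1 (403 against 37.5 CPM, 3.42) and Nid2 (1.82), the first 3 of which endothelial cells expressed at 3000, 1192 and 568 CPM. The list median was 0.07 and fell below 0 under TMM (−0.36) and median-ratio scaling (−0.16), and Sparc, the most abundant gene of the list, was at 9188 against 11931 CPM (−0.38). Of 13 interstitial collagens none was higher and Col11a1, Col12a1 and Col14a1 were lower (−2.31, −1.76 and −2.95), against 4.49% of all genes. Col5a3 had a pooled ratio of 1.61 but was under 2-fold in WB1P (0.93). Against the fibroblasts with at least 3 collagen UMIs, Col1a1 moved from −1.17 to −0.25, Fn1 from −0.91 to −0.34 and Sparc from −0.38 to 0.53, and 1 interstitial collagen was higher and 2 were lower.

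Of 32 other matrix proteins and enzymes 13 were lower (background 4.49%) and none higher, with a median of −1.06. Against the fibroblasts with at least 3 collagen UMIs, 3 of 31 were higher and 7 lower, with a median of −0.16. The small proteoglycans Dcn and Lum had 2 and 1 UMIs in members, and 4668 and 1221 in fibroblasts (−7.37 and −6.44). Mmp3 had no UMI in members and 1022 CPM in fibroblasts, a log2 ratio of −5.43 or below at a floor of 3 counts, and the crosslinking enzyme Lox was at 229 against 987 CPM (−2.11). Mgp, an inhibitor of calcification, went the other way at 5040 against 1700 CPM (1.57), although the ratio was 0.76 in WB1P and 1.92 in WB1P-Myc and so it was not called.

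Fibroblast markers were low in the members. Of 13 fibroblast markers 10 were lower (background 4.49%, median −3.11), including Dpt (1 UMI, −6.06), Igf1 (1 UMI, −6.39), Ly6a (2 UMIs, −5.18) and Mfap5 (118 against 1021 CPM, −3.11). Of 12 genes of inflammatory CAFs (iCAFs), 8 were lower (background 4.49%, median −2.18), such as Cxcl14 (2 UMIs, −6.17) and Cxcl12 (3 UMIs, −3.70), while Ccl2 and Il6 did not separate the classes (−0.16, −0.43 to 0.10, and 0.23, −0.38 to 0.79). Against the wider class of fibroblasts 7 of 13 fibroblast markers and 6 of 12 iCAF genes were lower (medians −2.06 and −2.27), with the fibroblast markers Mfap5 and Serpinf1 at −2.06 and −0.65 in place of −3.11 and −1.49. The further named genes with the lowest ratios were Cpxm1 (−7.47), Ptx3 (−5.72), Abi3bp (−5.58) and Sfrp1 (−5.48), each on 1 or 2 UMIs in members. Cell cycle genes, of which none of 16 was called, summed to 2552 against 1545 CPM, with a median log2 ratio of 0.89 that was 0.20 without the 2 deepest members, and none of 18 immediate early and heat-shock genes was called (median −0.08).

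**Figure D4:**
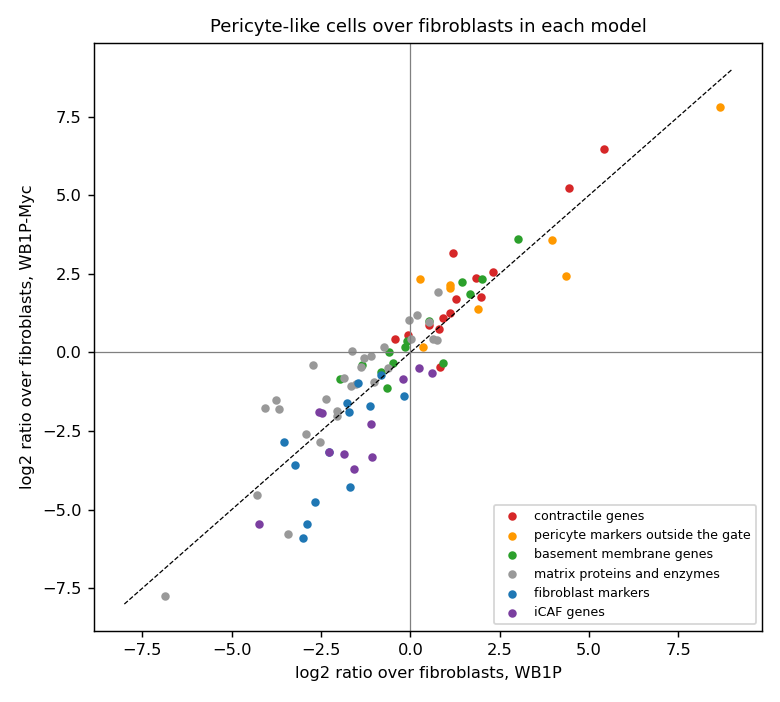
Log2 ratio over fibroblasts in WB1P (x axis) and WB1P-Myc (y axis) for genes of 6 lists with a value in both models, where the dashed line marks equal ratios and 0 UMIs are set to a floor of 3. Contractile genes and pericyte markers lie mostly above 0 in both models, and Dcn is lowest at −6.85 and −7.75. iCAF genes lie mostly below the line, but a gene at 0 UMIs takes its place from the floor. That floor is worth more CPM in WB1P members. Cxcl14, with 0 UMIs in WB1P and 2 in WB1P-Myc members, is drawn at −4.23 and −5.44.

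The members varied widely among themselves. Per 10000 UMIs of a cell, Rgs5 had a median of 53.4 (range 2.78 to 219), the pericyte list 34.8 (0 to 86.5) and the contractile list 132 (0 to 946). The medians of the models were alike, with 53.5 and 53.3 for Rgs5 and 136 and 131 for the contractile list in WB1P and WB1P-Myc. Over the 52 cells, which share libraries, Rgs5 ran with the pericyte list (Spearman correlation 0.48, and 0.45 with each cell thinned to 600 UMIs) and weakly with the contractile list (0.29 and 0.19). The pericyte and contractile lists had a correlation of −0.05 that became 0.12 after thinning, so no direction can be read. Rgs5 ran against depth (−0.39 with UMIs per cell), and so did the pericyte list (−0.33). The rule's minimum of Rgs5 UMIs is a higher value per 10000 in a shallow cell, so the relation of Rgs5 to depth is partly set by the rule. These correlations are descriptions.

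Acta2 was seen in 80.8% of members and 39.7% of fibroblasts (67.3% and 23.0% after thinning), and in 1.59% of myeloid cells. Myh11 had a UMI in 14 of the 52 members (26.9%, 15.6 to 41.0), and those cells had a median of 2251.5 UMIs against 1663 in the other members. Of those 14 cells 8 had Lmod1 and 10 had Tagln, and of the 38 others 5 and 18. Higd1b, Kcnj8, Abcc9 and Cspg4 were in 6, 2, 4 and 2 of the 14, and in 26, 11, 19 and 12 of the others. Notch3 differed from these, in 5 of the 14 and 8 of the 38 others. A missing UMI at this depth does not show that a gene was off.

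**Figure D5:**
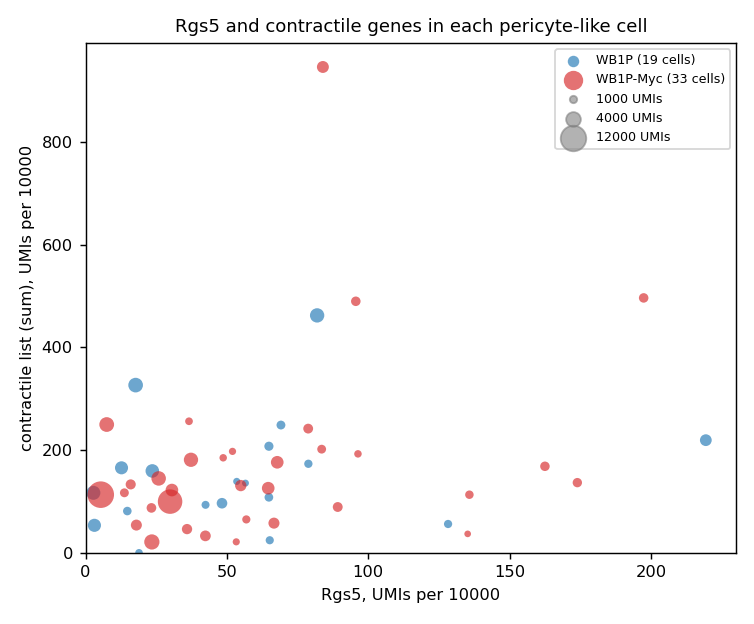
Rgs5 (x axis) and the summed contractile list (y axis) in UMIs per 10000 of each pericyte-like cell, in WB1P (19 cells) and WB1P-Myc (33 cells), with the point's area proportional to its UMIs. The models overlap, contractile values run from 0 to 946, and the deepest cells have low Rgs5.

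Pericyte-like cells of the models were compared gene by gene, as a comparison of a pair of suspensions and not of genotypes. A gene was called at 2-fold with at least 30 UMIs in members and an interval that left out equal levels. Of 722 genes compared, 29 were higher in WB1P-Myc (4.02%) and 44 lower (6.09%). Genes named for extreme ratios were calls that also separated every WB1P-Myc fraction from both WB1P fractions with at least 5 members. This separation only chose which genes to name, and its share among all genes compared is not given here. The share of higher calls was 39.7%, and it turned to 69.0% with TMM (58 higher, 26 lower) and 57.3% with median-ratio factors (47 higher, 35 lower).

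Between the models none of 12 contractile genes was called and 1 of 5 pericyte markers was higher, against 4.02% of all genes higher and 6.09% lower. Acta2 was at 3547 and 3158 CPM in WB1P and WB1P-Myc (log2 ratio −0.17, −0.47 to 0.14), and Higd1b at 714 and 549 CPM (−0.38, −1.08 to 0.35). The pericyte marker called was Aoc3, a vascular amine oxidase, at 76.5 and 343 CPM (2.17, 0.48 to 4.52). It was at 85.0, 57.5 and 99.6 CPM in WB1P fractions 2 to 4 and at 257, 251, 673 and 318 CPM in WB1P-Myc. Without the 2 deepest members, none of 4 pericyte markers compared was called and 1 of 11 contractile genes was higher. Without the 9 members with under 10 member neighbors the counts were none of 4 and 1 of 12. Both settings thus left fewer pericyte markers to compare than the 5 above. Without these 9 members Aoc3 was not compared, because its 3 and 25 UMIs were under the required minimum. Its level there was 76.5 and 362 CPM (log2 ratio 2.24, 0.53 to 4.61), so its ratio did not shrink.

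Fn1, which encodes fibronectin, was higher in WB1P-Myc members, at 383 and 1453 CPM (1.92, 1.15 to 2.80). Its WB1P fractions stood at 170, 575 and 299 CPM and its WB1P-Myc fractions at 2184, 1319, 1549 and 1115 CPM, without overlap. Fibroblasts did not share this order, with 2535 CPM in WB1P and 1916 in WB1P-Myc. All 4 members with mostly fibroblast neighbors were of WB1P-Myc. Without the 9 members with under 10 member neighbors Fn1 stood at 1360 CPM in WB1P-Myc (1.83, 1.03 to 2.72). Col1a2, a gate gene also higher in WB1P-Myc but with overlapping fractions, then stood at 10284 CPM there. The WB1P-Myc cells kept still included a member with 258 UMIs of the gate collagens and 10 fibroblast neighbors. The part of fibroblast transcripts in these levels was not tested. The other named genes that were higher had few UMIs in WB1P members. Top2a had 4 UMIs in WB1P and 44 in WB1P-Myc members (2.30, 0.84 to 4.24). The splicing gene Snrnp70 had 3 and 29 (2.12, 0.43 to 4.48). The chromatin gene Dek had 5 and 41 (1.88, 0.54 to 3.58), and the signal peptidase gene Spcs1 had 4 and 31 (1.80, 0.30 to 3.76). Most UMIs that brought these genes to the required minimum thus came from WB1P-Myc members, where they were called higher.

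Cell cycle genes summed to 1021 CPM in WB1P and 3239 CPM in WB1P-Myc members, and both of those compared, Top2a and Hmgb2, were higher (background 4.02%), although Hmgb2 was not called without the 9 members with under 10 member neighbors (1.13, −0.11 to 2.57). The sums of the fractions overlapped, at 2720, 115 and 598 CPM in WB1P fractions 2 to 4 and 1092, 3893, 3030 and 3862 CPM in the WB1P-Myc fractions. Top2a, the topoisomerase of dividing cells, was at 102 and 504 CPM in members and at 105 and 393 CPM in fibroblasts. It was at 0, 0 and 398 CPM in WB1P fractions 2 to 4 and at 385, 628, 67.3 and 677 CPM in the WB1P-Myc fractions, so that fraction 4 of WB1P, whose 4 members kept it out of the separation rule, lay inside the WB1P-Myc range. Few cells carried this group: the deepest member alone held 100 of the 323 cell cycle UMIs and 18 of the 48 Top2a UMIs. Without it the WB1P-Myc sum was 2460 CPM, and without the 2 deepest members 2304 CPM. In all, 13 members had at least 5 cell cycle UMIs, 3 of WB1P and 10 of WB1P-Myc, and 23 had none.

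Of the 12 iCAF genes only 3, all chemokine genes, had enough UMIs to be compared between the models. All 3 were lower in WB1P-Myc members: Ccl2 (1658 and 664 CPM, −1.32), Ccl7 (612 and 137 CPM, −2.16) and Cxcl1 (1531 and 721 CPM, −1.09), which attract monocytes and neutrophils. With either other scaling, 2 of the 3 were lower, and the background was 6.09%. Ccl7 was at 510, 805 and 398 CPM in WB1P fractions 2 to 4 and at 0, 283, 0 and 119 CPM in WB1P-Myc, and fibroblasts also held more of it in WB1P (1316 and 666 CPM). Ccl2 overlapped between the models, with WB1P fraction 4 at 99.6 CPM and WB1P-Myc fraction 4 at 1433. The sums of the whole iCAF list overlapped too. They were 5610, 5176 and 2590 CPM in WB1P fractions 2 to 4 and 1799, 1350, 337 and 3106 CPM in the WB1P-Myc fractions.

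Of 14 immediate early and heat-shock genes, 7 were lower in WB1P-Myc, against 6.09% of all genes: Junb (2118 and 835 CPM, −1.34), Ier3 (638 and 160 CPM, −1.99), Atf3, Klf2, Klf6, Nr4a1 and Zfp36. The list sums overlapped between the models, at 12580, 15872 and 20223 CPM in WB1P fractions 2 to 4 and 15352, 12591, 15889 and 9556 CPM in the WB1P-Myc fractions. Ier3 turned to 0.20 (−2.02 to 2.83) with each cell thinned to 600 UMIs. This count was sensitive to scaling, with 3 lower and 2 higher under TMM, 4 lower and 1 higher under median-ratio factors, and 4 lower and 2 higher without the 2 deepest members. Apold1 was at 1046 and 286 CPM (−1.87), with every WB1P fraction (1530, 690 and 1096 CPM) above every WB1P-Myc fraction (257, 251, 337 and 319 CPM). Gm13889 (689 and 114 CPM, −2.59) and the respiratory chain gene Uqcrb (1199 and 355 CPM, −1.76) were also lower. Gm1821 (−2.05) resembles ubiquitin genes, so its reads are uncertain.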

How the data were processed

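Live cells from tumors of each model were profiled by Drop-seq. The deposited tables hold raw UMI counts per gene symbol and barcode, made by the authors with dropseq-tools; the submitters' processing notes name mm10 and Scanpy. The HiSeq tables gave the values reported, the MiSeq tables served as a repeat run, and a merged table was not used. No member's barcode was listed in the MiSeq table of its fraction, so the MiSeq values do not measure the same cells again. Barcodes with 450 to 4000 genes and under 20% mitochondrial UMIs were kept. Members and gene lists were chosen with earlier results of these data known. Counts were summed per class and expressed as CPM with exact Poisson intervals, shares had Clopper-Pearson intervals, and ratios exact conditional binomial intervals, with 0 counts set to a floor of 3. No test between classes or models was run, since each model is 1 sample. Gate genes and mitochondrially encoded genes were left out of the calls. The text names the 15 highest and 10 lowest called ratios over fibroblasts whose interval left out equal levels in each model, the most abundant genes of each list, the pericyte, contractile and pathway genes with at least 10 UMIs in members, and for the models the 6 highest and 6 lowest calls that separated the fractions. A few list genes below these limits are given by value, chosen after their values were seen. TMM factors came from edgeR 4.0.16 and median-ratio factors from DESeq2 1.42.0 (R 4.3.3), which served for scaling alone. Python 3.11.15, NumPy 2.4.6, pandas 2.3.3, SciPy 1.17.1 and scikit-learn 1.9.0 were used. The calls were checked on simulated counts. Alternatives covered the run, gate, filters, fractions, scaling, depth and comparison class.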

Additional observations from a re-analysis of the deposited data

Results flagged for a closer look

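A fraction far from the others was sought in 61 groups of 4 fractions, where chance sets apart about 1 in 20. The groups were the pericyte-like shares of each model and, in WB1P-Myc members, single genes and summed gene lists. The single genes were the pericyte genes of the gate and most genes named for the highest or lowest ratios. Apold1 entered under both comparisons. In 9 groups 1 fraction stood apart. Rgs5 reached 7901 CPM in WB1P-Myc fraction 1 against 3703 to 4309 CPM in the other fractions. Aoc3 reached 673 CPM in fraction 3. The other 7 were genes nearly missing from members, each on 1 or 2 UMIs. In these 3 of the 4 fractions were at 0, so any UMI set a fraction apart and the chance rate above does not apply to them: Cpxm1, Lum and Dpt at 31.4 CPM in fraction 2, Dcn and Abi3bp at 67.3 CPM in fraction 3, Igf1 at 64.2 CPM in fraction 1 and Sfrp1 at 79.6 CPM in fraction 4.

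Above the maximum of 4000 genes, outside the cells compared, 4 barcodes of 174 met every other condition for pericyte-like cells.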

How the results depend on the processing

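No paired analysis was possible because each model was 1 suspension and no value came from a test. Leaving out 1 fraction at a time gave WB1P shares of 1.10% to 1.69% of cells and 7.30% to 10.5% of stromal cells, WB1P-Myc shares of 0.884% to 0.984% and 9.70% to 10.7%, 134 to 164 genes higher and 148 to 233 lower than in fibroblasts, and 18 to 37 higher and 36 to 49 lower in WB1P-Myc. The 148 came without WB1P fraction 3, and the 18 without that fraction or without WB1P-Myc fraction 2. In the MiSeq tables the WB1P shares were 0.473% and 3.08%, and the counts 25 and 0 against fibroblasts and 4 and 2 between models. Those tables listed none of the members' barcodes for the same fraction. A minimum of 20 UMIs gave 351 higher than in fibroblasts and 53 higher in WB1P-Myc, and a minimum of 100 gave 80, and 3 higher and 6 lower between models. TMM gave 62 and 464, and 58 and 26, and median-ratio factors 83 and 47 higher. Thinning to 600 UMIs gave 28 and 69, and 3 and 8, and turned the Spearman correlation of the pericyte and contractile lists from −0.05 to 0.12. Leaving out cells with epithelial or Schwann UMIs gave 18 higher in WB1P-Myc. Against the 609 fibroblasts with at least 3 collagen UMIs and no pericyte UMI, 222 genes were higher and 180 lower, and 61 of 114 named genes moved beyond their counting interval, of which 14, none of them called, crossed 0. The causes were not tested, except that thinning and higher minimums leave fewer genes compared. Without the 2 deepest members, an alternative added after the data were seen, 161 genes were higher and 221 lower than in fibroblasts, and 20 higher and 46 lower in WB1P-Myc. Without the 9 members with under 10 member neighbors, also added then, these counts were 177 and 235, and 21 and 44. Of 2682 values for 114 named genes over fibroblasts, 2426 stayed within the counting interval. Of the genes called, 5 turned direction, all in the MiSeq tables: Tpm2 (−0.44), Pde3a (−0.094), Id3 (−0.15), Serpinf1 (0.14) and Itgb1 (−0.18). Of 264 values between models, 256 stayed within the counting interval, and Ier3 turned to 0.20 after thinning.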

Other observations

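For 5 genes outside the lists, chosen after their values were seen and measured on few UMIs, members held 23.1% to 41.2% of the UMIs in filtered cells. Gm13889 had 37 UMIs in members and 4 in fibroblasts, and members held 39.4% of its UMIs in filtered cells. Rasgrp2, which activates the small GTPase Rap1, had 22 UMIs in members and 6 in fibroblasts (34.9% of its UMIs in members). Map3k7cl had 14 and 16 (41.2%). Ptgir, the prostacyclin receptor that relaxes vascular smooth muscle, had 8 and 14 (24.2%), and Gper1, a membrane estrogen receptor, 9 and 1 (23.1%). All 5 lay below the 50 UMIs required for a call.

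The member neighbors of WB1P members were 46.8% WB1P cells, where WB1P gave 36.5% of all members, and those of WB1P-Myc members were 66.5% WB1P-Myc cells, where WB1P-Myc gave 63.5%.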
